A study of Mus musculus with 3 samples.

Results

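The inflammasome sensors and executors examined here are 10 mouse genes, taken by symbol from the 53802 genes of the deposited count matrices: the sensors Nlrp3, Nlrp1b, Aim2, Nlrc4, Naip2 and Naip5, the adaptor Pycard, the proteases Casp1 and Casp4, and the pore former Gsdmd. Their transcripts were counted in monocytes sorted as Ly6Chi from livers of male C57BL/6 mice aged 8 weeks, 24 h after an intraperitoneal dose of 300 mg/kg acetaminophen, a drug whose overdose kills hepatocytes. All mice were fasted for 12 h beforehand and had chow back after 2 h. The 1 knockout library, numbered 4, came from LysMDCommd10 mice, a name that by convention stands for deletion of the floxed Commd10 gene by Cre expressed from the Lyz2 (LysM) locus, which is active in monocytes, macrophages and neutrophils alike. The 2 control libraries, numbered 1 and 3, came from Commd10fl/fl mice, and no group without liver injury was among the samples. The number of mice behind a library is not stated, so a p-value between genotypes reflects how far libraries differ, a spread that may be technical. A p-value between cell groups of the same libraries reflects how far differences between groups vary from library to library.

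Inflammasomes are protein complexes that assemble in the cytosol of myeloid cells when a sensor meets a danger signal. NLRP3 responds to potassium efflux and membrane damage, NLRP1B to pathogen proteases, AIM2 to cytosolic DNA, and NLRC4 to bacterial proteins handed over by NAIP2 (the rod of type III secretion systems) and NAIP5 (flagellin). The adaptor ASC, encoded by Pycard, links sensors to caspase-1, which matures interleukin-1β and interleukin-18 and cleaves gasdermin D. Casp4 encodes mouse caspase-11, which binds cytosolic lipopolysaccharide and also cleaves gasdermin D, whose fragment forms pores in the plasma membrane. Hepatocytes dying from acetaminophen release DNA, ATP and other ligands of these pathways, and blood monocytes are recruited to the necrotic areas.

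The matrices held 5152 barcodes in the knockout library, against 4814 and 8109 in controls 1 and 3, beside 5229, 4860 and 8149 cells stated by the submitters. Barcodes shared between libraries numbered 8 to 26 per pair. Of 4457, 4115 and 7449 cells that passed quality filters, 4407, 4045 and 7378 remained after cells with lymphocyte, neutrophil or dendritic cell markers were set aside, and the median depth of the passing cells was 6865, 8770 and 8160 unique molecular identifiers (UMIs). All 5 monocyte-macrophage markers were detected in every library, and they summed to 8288 CPM in the knockout library, against 17261 and 13293 CPM in controls 1 and 3. Most of that sum was Lyz2, the locus that by convention carries Cre in the knockout. It gave 191311 of 245036 UMIs in the knockout library, against 601422 of 675217 and 833493 of 958481 UMIs in controls 1 and 3. The sum therefore mainly follows Lyz2 and says little about the other markers. The deleted gene, Commd10, stood at 8.64 CPM in the knockout library, against 17.3 and 10.3 CPM in controls 1 and 3 (log2 fold change -0.67 ± 0.30 SE, edgeR adjusted p = 0.555), so that control 3 lay close to the knockout library. CPM are UMIs per 1000000 UMIs of the summed cells, with TMM-scaled totals for single genes and plain totals for marker sums. The deleted exons are not named by the labels, and a deletion outside the counted 3' end need not show in these values. Lyz2 stood at 6614 CPM in the knockout library, against 15045 and 11573 CPM in the controls. Platelet markers summed to 378 CPM in the knockout library, against 165 and 131 CPM, hepatocyte markers to 26.1, against 20.5 and 62.0 CPM, endothelial markers to 20.5, against 12.0 and 9.10 CPM, and erythroid markers to 24.6, against 31.8 and 46.9 CPM, with 1 of 3 erythroid markers at 0 in the knockout library. The part of these other cells in the values below was not tested.

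Cells were placed in exclusive groups by marker genes, none of them among the 10. The Vcan gate (Vcan, Ly6c2, Ccr2, Plac8; classical monocyte genes) held 24.6% of monocyte-macrophage cells in the knockout library, against 33.0% and 47.0% in controls 1 and 3. The Arg1 gate (arginase 1) held 26.4%, against 7.96% and 2.59%, and the S100a8 gate (S100a8 and S100a9, alarmin genes) held 12.0%, against 7.74% and 3.58%. A C1q gate (C1qa, C1qb, C1qc; macrophage genes), an MHC class II gate, a patrolling gate (Ace, Spn, Treml4; genes of non-classical monocytes) and an ungated remainder made up the rest. The gate levels were set after the marker distributions had been seen. Between 104 cells (Arg1 gate, control 3) and 1463 cells (Vcan gate, control 3) lay within 1.5 times a monocyte-macrophage gate's level. In sums over all cells, genotype and cell make-up therefore cannot be told apart, and the same comparisons were also made inside each gate.

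Each of the 10 genes was located on GRCm38 with GENCODE M21. Nlrp3 lies at chr11:59541568-59566956 and Nlrp1b at chr11:71153102-71230733. Aim2 lies at chr1:173350879-173466040, Nlrc4 at chr17:74425438-74459142 and Pycard at chr7:127989708-127993867. Gsdmd lies at chr15:75862327-75867408. The proteases are neighbours, Casp1 at chr9:5298517-5307265 and Casp4 at chr9:5308828-5336783, and so are Naip2 at chr13:100144063-100202092 and Naip5 at chr13:100211739-100246323. Pycard overlaps Gm45205 and Aim2 overlaps Cadm3 on the other strand, and Nlrc4 overlaps CT033749.1 and Naip2 overlaps Gm18413 on the same strand. The sources used here do not say whether counting used strand, so counts of these 4 genes are uncertain to that extent. Of the stretches of 50 bases within the last 500 bases of their transcripts, 6.21% of Naip5, 5.88% of Nlrc4 and 0.822% of Aim2 also occur in another gene, and none of those of the other 7 do. No stretch of Naip2 or Naip5 was shared with another Naip gene.

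None of the 10 genes passed the test between the knockout library and the controls over all monocyte-macrophage cells (0 of 10 at an edgeR adjusted p under 0.05). By unadjusted p, Nlrp1b and Casp1 fell under 0.05, as did 9.05% of all genes, and DESeq2 called 0 as well. Over all 14700 genes tested, edgeR called 77, which is 0.524%, and DESeq2 called 1.01% of 11565. All 10 genes passed the low-count filter, on 158 UMIs (Nlrp1b) to 9426 UMIs (Pycard) in the knockout library, against 380 to 12440 and 691 to 21076 UMIs in controls 1 and 3.

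Among the sensors, Nlrp3 stood at 41.0 CPM in the knockout library, against 36.0 and 50.4 CPM in controls 1 and 3 (log2 fold change -0.08 ± 0.21 SE, adjusted p = 0.944). The knockout value lay between the controls, and its direction depends on which control it is set against: 0.18 without control 3 and -0.30 without control 1. Nlrp1b had 5.46 CPM in the knockout library, against 9.51 and 9.59 CPM in the controls (-0.81 ± 0.23, adjusted p = 0.289). The controls nearly coincided and the knockout library lay below both, yet the difference did not pass the adjusted threshold. Aim2 had 27.3 CPM, against 32.3 and 35.5 CPM (-0.31 ± 0.16, adjusted p = 0.623). For the NAIP-NLRC4 pathway, Nlrc4 had 9.33 CPM in the knockout library, against 9.63 and 11.4 CPM in the controls (-0.18 ± 0.22, adjusted p = 0.851). Naip2 had 54.5 CPM, against 46.3 and 55.2 CPM (0.10 ± 0.17, adjusted p = 0.897). Naip5, whose product recognises flagellin, had 14.6 CPM, against 17.4 and 20.3 CPM (-0.37 ± 0.19, adjusted p = 0.613).

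The adaptor Pycard was the only one of the 10 with a knockout value above both controls, at 326 CPM against 311 and 293 CPM (0.11 ± 0.16, adjusted p = 0.873). Casp1, the protease that Pycard recruits, had 54.1 CPM in the knockout library, against 66.0 and 74.9 CPM in the controls (-0.38 ± 0.17, adjusted p = 0.544). Casp4 had 29.7 CPM, against 21.0 and 41.2 CPM (-0.07 ± 0.32, adjusted p = 0.971). The controls thus differed from each other more than either did from the knockout library, and the log2 fold change was 0.49 without control 3 and -0.47 without control 1. The pore former Gsdmd had 80.9 CPM, against 85.7 and 100.0 CPM (-0.20 ± 0.17, adjusted p = 0.771). In all, the knockout value lay below both controls for 6 genes, above both for 1 and between them for 3. Of all genes tested, 36.9% lay below both controls and 36% above both. The median log2 fold change was -0.19 over the 10 genes and -0.01 over all genes tested.

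**Figure D1:**
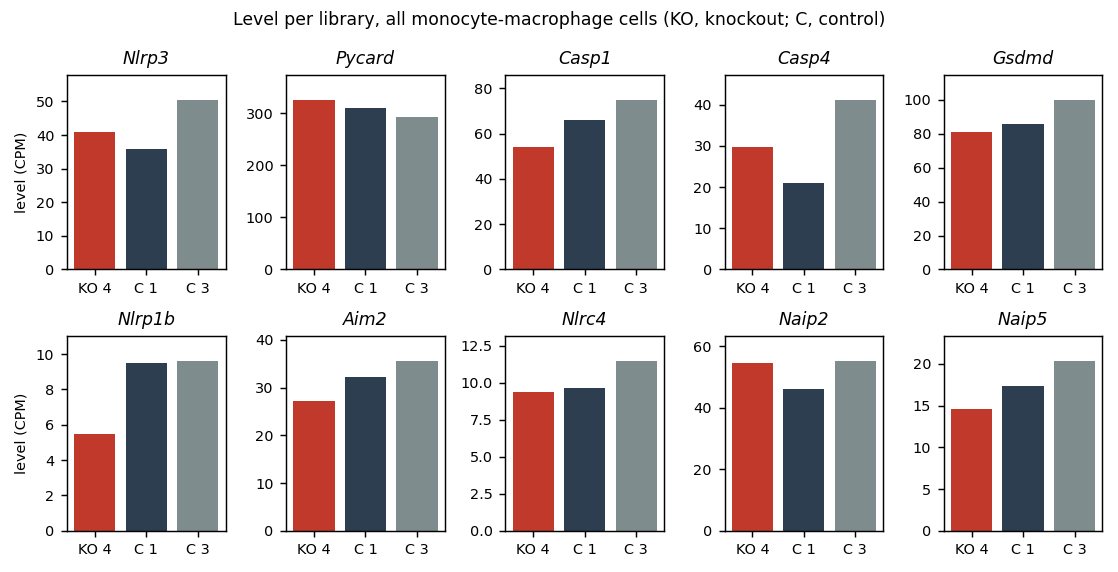
Level of each gene in CPM (vertical axes, each from 0) summed over all monocyte-macrophage cells of the knockout library 4 (left bar) and of control libraries 1 and 3. Each bar is 1 library, so there is no error bar. Nlrp1b stands at 5.46 CPM in the knockout library beside controls of 9.51 and 9.59 CPM, whereas for Casp4 the knockout value of 29.7 CPM lies between controls of 21.0 and 41.2 CPM.

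Inside the 7 gates, the comparison of knockout with control called 1 of the 10 genes, in 1 gate. It was Nlrp1b in the Arg1 gate, with 2.39 CPM in the knockout library, against 7.94 and 9.38 CPM in controls 1 and 3 (-1.84 ± 0.49 SE, edgeR adjusted p = 0.00794). These levels rest on 18 UMIs in 1162 cells, against 27 UMIs in 322 cells and 21 UMIs in 191 cells. In that gate 982 of 10235 genes were called (9.59%), so a call was far more common there than over all cells. The value was -1.74 without control 3 and -1.98 without control 1. With the gate levels doubled the adjusted p was 0.199, with them halved it was 0.0136, and DESeq2 gave the gene no adjusted p. The difference between the Nlrp1b effect in the Arg1 gate and that in the Vcan gate was -1.20 ± 0.39 on the log2 scale and did not pass (adjusted p = 0.264). Commd10 itself fell in the Arg1 gate, to 7.82 CPM against 17.9 and 14.3 CPM (-1.07 ± 0.31, adjusted p = 0.0152). It passed in none of the other 6 gates, and the knockout value lay between the controls in the patrolling gate, at 9.53 CPM against 18.1 and 9.05 CPM, and in the MHC class II gate, at 9.85 CPM against 17.8 and 8.99 CPM.

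In the Arg1 gate the other 9 genes did not pass. Nlrp3 stood at 35.8 CPM there in the knockout library, against 25.3 and 28.1 CPM in controls 1 and 3 (0.42 ± 0.21, adjusted p = 0.22), and Casp1 at 36.5 CPM, against 53.3 and 49.6 CPM (-0.51 ± 0.20, adjusted p = 0.0831). With the gate levels halved, the Casp1 value of -0.53 had an adjusted p of 0.0332. None of the 10 was called in the other gates, where 0.571% of all genes were called in the ungated remainder, 0.328% in the C1q gate, 0.114% in the MHC class II gate, 0.0239% in the Vcan gate, 0.0199% in the S100a8 gate and 0% of 10651 genes in the patrolling gate. The number of the 10 genes with an unadjusted p under 0.05 was 3 in the Arg1 gate, 1 in the Vcan gate and 0 in the others. The shares of all genes at that threshold were 22.3% in the Arg1 gate, 6.19% in the Vcan gate and 4.83% to 9.39% in the others. These counts are near those shares. DESeq2 gave an adjusted p to 4 of the 10 in the Arg1 gate, to 2 in the ungated cells and to between 7 and 10 in the other gates, and called 0 of these. It called 2.29% of all genes in the Arg1 gate, 0.367% in the Vcan gate, 0.325% in the ungated cells, 0.224% in the S100a8 gate, 0.206% in the MHC class II gate, 0.0956% in the C1q gate and 0.0376% in the patrolling gate.

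Nlrp1b, Casp1 and Aim2 lay below both controls in 7 of 7 gates. Of all 10835 genes measured in the gates, 4.63% did so. With the gate levels doubled the Nlrp1b value in the patrolling gate changed sign (0.81). Naip5 lay below both controls in 6 gates, Gsdmd in 5 and Nlrp3 in 4, and Naip2 lay above both in 4. The 7 gates come from the same 3 libraries, so they are not independent repeats. No effect of the knockout in a gate was called different from that in the Vcan gate (0 of 60 tests, lowest adjusted p = 0.264). An unadjusted p under 0.05 was found in 8 of the 60 tests, and in 4.89% (S100a8 gate) to 10.98% (Arg1 gate) of all genes. Of all genes, 0.12% were called for such a difference in the Arg1 gate, 0.0738% in the C1q gate, 0.0185% in the ungated cells, 0.00923% in the MHC class II gate and 0% in the patrolling and S100a8 gates.

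**Figure D2:**
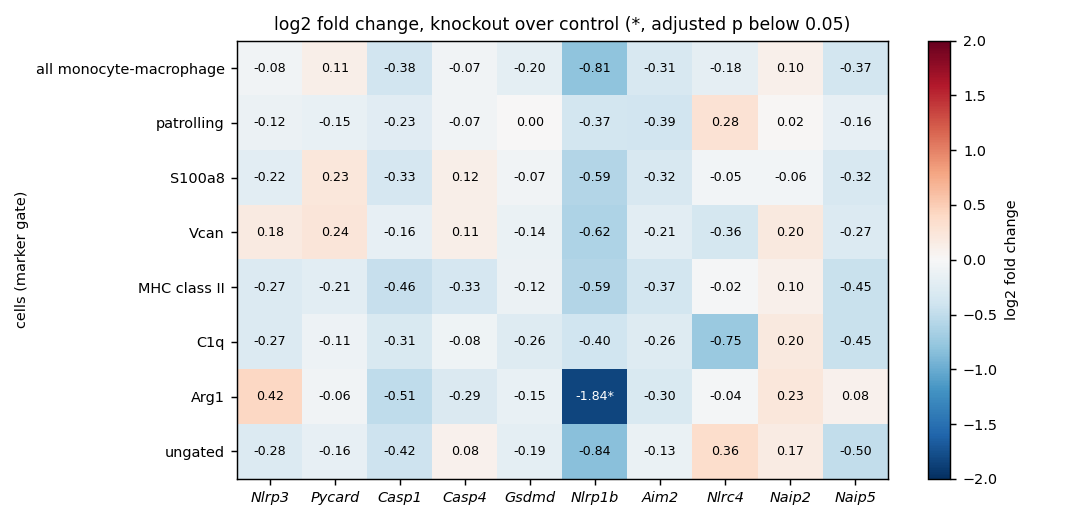
Log2 fold change of knockout over control (colour and printed value) for each gene (columns) over all monocyte-macrophage cells and in each marker gate (rows). Only the value marked with a star, Nlrp1b in the Arg1 gate at -1.84, has an adjusted p under 0.05, and the columns of Nlrp1b, Casp1 and Aim2 are negative in every row, the Nlrp1b value in the patrolling gate turning to 0.81 with doubled gate levels.

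Levels of the 10 genes were then compared among cell groups. In the Arg1 gate 9 of 10 genes were lower than in the Vcan gate of the same libraries (n = 3 libraries, fitted as blocks), against 17.1% of all 10835 genes tested, or 18.8% of the 8816 with a mean of at least 5 CPM. In the C1q gate 9 of 10 were lower (15.7% of all genes) and in the ungated remainder 8 of 10 (17.4%). Without control 3 the C1q count was 6 of 10 (8.71% of all genes), since the calls of Nlrp1b (adjusted p = 0.230), Naip5 (0.0509) and Gsdmd ended. The Nlrp1b call there, at an adjusted p of 0.0406, also ended without control 1 (0.228) and with halved gate levels (0.583). None of the 10 was higher than in the Vcan gate in these 3 groups, where 18.3%, 16.6% and 18.2% of all genes were. The median log2 fold change of the 10 genes was -0.55 in the Arg1 gate, -0.46 in the C1q gate and -0.49 in the ungated cells, against 0.01, -0.0022 and 0.01 over all genes. In the MHC class II gate 2 of the 10 were lower (6.7% of all genes), but with doubled gate levels 7 were (13.0% of all genes), Nlrp3, Casp1, Aim2, Naip2 and Naip5 being added. In the other 2 gates few of the 10 differed: 1 was higher in the S100a8 gate (4.43%), and in the patrolling gate 2 were higher (9.01%) and 1 was lower (8.08%).

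Of the sensors, Nlrp3 had 35.8 CPM in the Arg1 gate of the knockout library and 25.3 and 28.1 CPM in that of controls 1 and 3, against 52.9, 38.2 and 56.0 CPM in their Vcan gates (-0.62 ± 0.11 SE, adjusted p = 7.52e-05). It was lower in 3 of 3 libraries. Naip5 fell furthest there, with 10.1, 8.83 and 10.3 CPM in the Arg1 gate of the knockout library and controls 1 and 3, against 17.1, 18.4 and 23.0 CPM in their Vcan gates (-0.94 ± 0.13, adjusted p = 2.74e-06). Aim2, the DNA sensor, fell by 0.44 ± 0.09 (adjusted p = 0.000335) and Naip2, which recognises secretion rods, by 0.48 ± 0.09 (adjusted p = 0.00014), each in 3 of 3 libraries. Nlrp1b fell by 0.75 ± 0.20 (adjusted p = 0.00509), but without the knockout library its value was -0.35 with an adjusted p of 0.219. Nlrc4 did not pass in the Arg1 gate (-0.40 ± 0.17, adjusted p = 0.0704), nor in the C1q gate or the ungated cells. It did pass in the Arg1 gate with doubled gate levels (0.0356) or library totals in place of TMM scaling (0.0458), in the C1q gate with doubled levels (0.00612), and in the ungated cells without the knockout library (0.0299).

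Among the proteases, Casp1 had 36.5, 53.3 and 49.6 CPM in the Arg1 gate of the knockout library and controls 1 and 3, against 69.3, 74.1 and 81.9 CPM in their Vcan gates (-0.71 ± 0.09, adjusted p = 1.64e-06). Casp4 had 18.4, 21.2 and 23.7 CPM there, against 39.6, 24.0 and 48.9 CPM in the Vcan gates (-0.82 ± 0.13, adjusted p = 1.61e-05). It was lower in 3 of 3 libraries for both genes, by least for Casp4 in control 1. Casp4 was also lower in the C1q gate (-0.76 ± 0.11), the ungated cells (-0.99 ± 0.13) and the MHC class II gate (-0.42 ± 0.12, adjusted p = 0.0144). The last call ended without control 3 (adjusted p = 0.0722), without the knockout library (0.103) and with halved gate levels, where the value was -0.26 (0.229). Gsdmd fell by 0.41 ± 0.07 in the Arg1 gate (adjusted p = 2.56e-05) and by 0.25 ± 0.06 in the C1q gate (0.00351), the second of which ended without control 3 (0.0895) and with halved gate levels, where the value was -0.15 (0.132). In the ungated cells the Gsdmd call ended without control 3 (0.113) and that of Naip2 with halved gate levels (0.372).

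Pycard followed another order. It had 533 CPM in the S100a8 gate of the knockout library and 458 and 463 CPM in that of controls 1 and 3, against 399, 352 and 331 CPM in their Vcan gates (0.43 ± 0.08 SE, adjusted p = 0.000977). In the patrolling gate it had 201, 226 and 217 CPM (-0.74 ± 0.08 against the Vcan gate, adjusted p = 4.4e-07). Both differences were seen in 3 of 3 libraries. Mean levels over the 3 libraries ran from 485 ± 42.2 CPM (SD) in the S100a8 gate through 361 ± 35.0 in the Vcan gate and 296 ± 38.4 in the Arg1 gate to 215 ± 12.5 in the patrolling gate, and the MHC class II, ungated and C1q groups between the last 2 differed from each other by less than their SD. Pycard in the Arg1 gate was lower than in the Vcan gate by 0.28 ± 0.08 (adjusted p = 0.00844), a call that ended without the knockout library (adjusted p = 0.07).

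In the patrolling gate the pore former and a flagellin sensor were higher. Gsdmd had 116, 103 and 127 CPM in that gate of the knockout library and controls 1 and 3, against 87.4, 91.4 and 103 CPM in their Vcan gates (0.29 ± 0.06 SE, adjusted p = 0.00179). Naip5 had 23.8, 27.8 and 25.3 CPM there, against 17.1, 18.4 and 23.0 CPM (0.38 ± 0.11, adjusted p = 0.0146). Each was higher in 3 of 3 libraries. The Gsdmd call ended without control 3 (adjusted p = 0.0729), and that of Naip5 without control 1 (0.306) or the knockout library (0.0842) and with halved gate levels (0.175). By mean level over the libraries, the patrolling gate stood first for Gsdmd, Aim2, Nlrc4, Naip2 and Naip5, the S100a8 gate for Nlrp3, Pycard and Casp4, and the Vcan gate for Casp1 and Nlrp1b. The step from the first to the second gate was larger than the SD over libraries for Pycard, Gsdmd, Naip2 and Naip5. For Nlrp3, Casp1, Casp4, Nlrp1b and Nlrc4 no neighbouring gates in the order differed by more than the larger SD, and neither did they for Aim2.

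**Figure D3:**
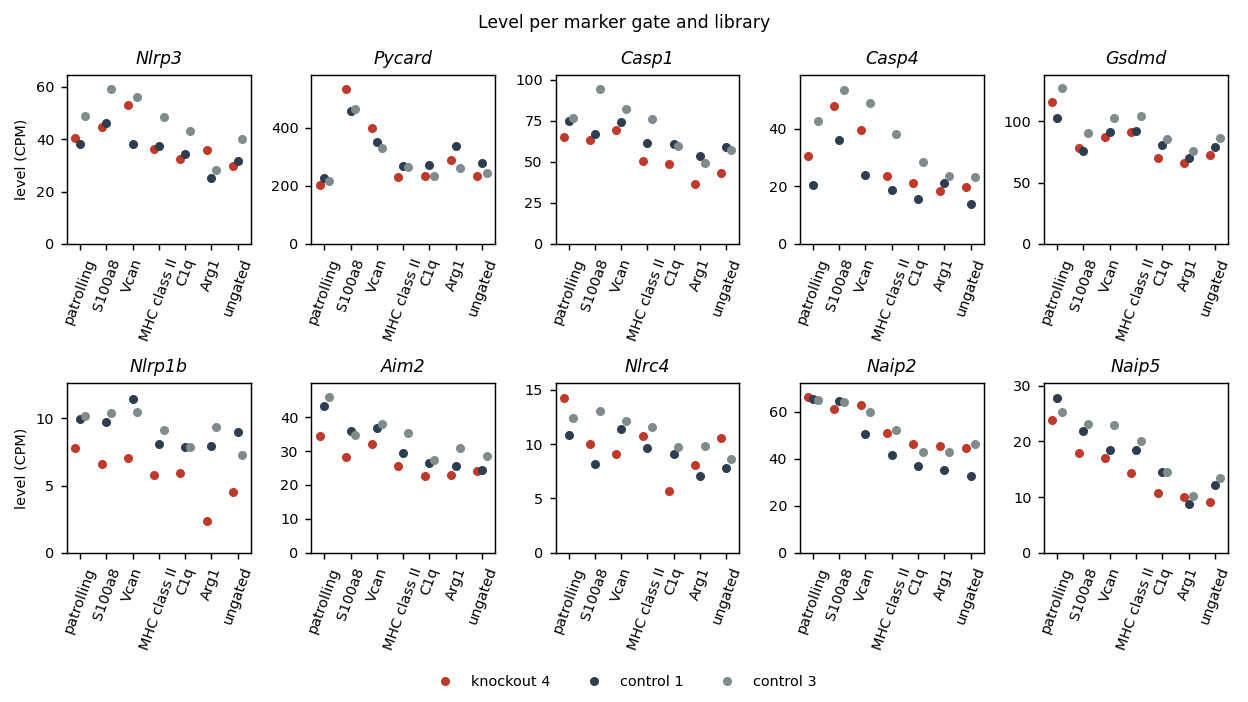
Level of each gene in CPM (vertical axes, from 0) in each marker gate (horizontal axis), 1 point per library: knockout 4, control 1 and control 3, from left to right within a gate. Most genes sit lower in the C1q, Arg1 and ungated groups than in the Vcan gate, while Pycard is highest in the S100a8 gate (533, 458 and 463 CPM) and lowest in the patrolling gate (201, 226 and 217 CPM).

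**Figure D4:**
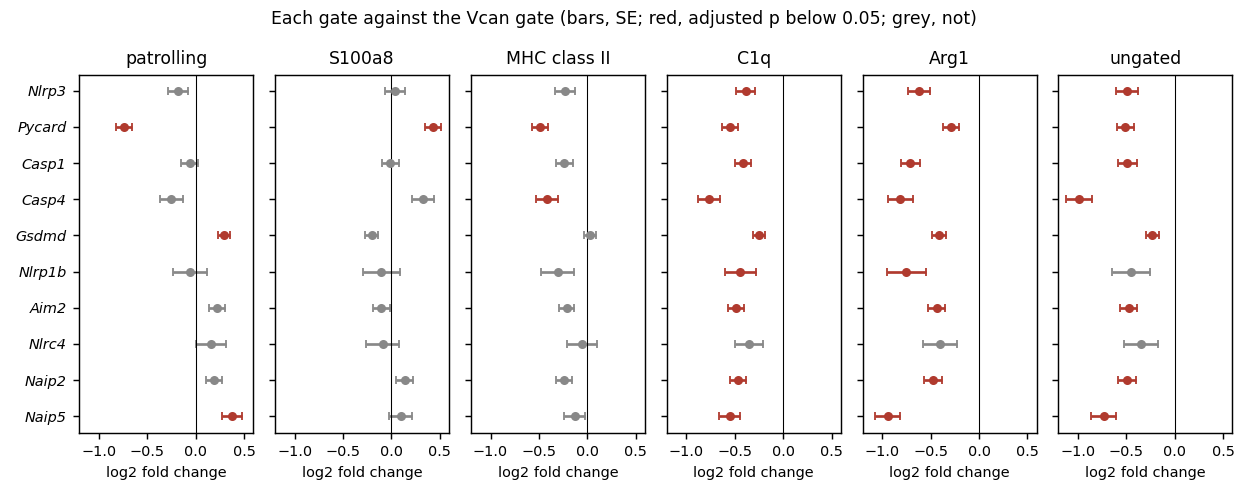
Log2 fold change of each gate against the Vcan gate (horizontal axes) for each gene (rows), with bars of 1 SE from the edgeR fit over 3 libraries. Red points have an adjusted p under 0.05. In the Arg1 and C1q panels 9 of 10 points are red and left of 0, while the patrolling panel has Pycard to the left and Gsdmd and Naip5 to the right.

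Cells high in interferon-stimulated genes (Isg15, Ifit1, Ifit2, Ifit3, Rsad2, Cmpk2 and Oasl1) made up 13.1% of monocyte-macrophage cells in the knockout library, against 13.2% and 13.3% in controls 1 and 3. Compared with the other cells of the same libraries, 4 of the 10 genes were higher in them, Casp4, Casp1, Aim2 and Gsdmd, and 1 was lower, Pycard (n = 3 libraries). Of all 12608 genes tested, 6.13% were higher and 3.85% lower. Casp1, Casp4 and Aim2 are known as interferon-inducible genes in mouse macrophages. Because the cells were picked by interferon-stimulated genes, higher levels of such genes follow in part from that choice.

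Casp4 had 41.9 CPM in the interferon-high cells of the knockout library and 29.4 and 49.5 CPM in those of controls 1 and 3, against 27.7, 19.8 and 39.6 CPM in the other cells (0.45 ± 0.07 SE, adjusted p = 0.000231). Casp1 had 75.8, 80.0 and 86.5 CPM in them, against 50.6, 64.0 and 72.6 CPM (0.36 ± 0.06, adjusted p = 0.000364). For both proteases every library moved the same way, the knockout library included. Aim2 had 32.8, 37.1 and 41.2 CPM, against 26.3, 31.6 and 34.4 CPM (0.26 ± 0.07, adjusted p = 0.0133). Gsdmd had 97.6, 89.5 and 110 CPM, against 78.0, 85.1 and 97.8 CPM (0.18 ± 0.05, adjusted p = 0.0397). Aim2 and Gsdmd did not pass without control 3 (adjusted p = 0.133 for each), nor did Gsdmd without the knockout library (0.163). With halved gate levels the Aim2 value was 0.12 and did not pass (0.268). Pycard had 276, 272 and 263 CPM in the interferon-high cells, against 331, 317 and 295 CPM in the others (-0.21 ± 0.04, adjusted p = 0.000755), lower in 3 of 3 libraries.

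Nlrp3 did not pass (0.00 ± 0.07, adjusted p = 0.998), nor did Nlrp1b, Nlrc4, Naip2 or Naip5, whose log2 fold changes ran from -0.09 (Naip2) to 0.07 (Naip5). Inside the Vcan gate alone, 3 of the 10 were called (7.05% of all genes): Casp4 at 0.60 (adjusted p = 3.7e-05) and Casp1 at 0.29 (0.0266) were higher and Pycard at -0.33 (3.19e-05) was lower, while Aim2 at 0.25 (0.193) and Gsdmd at 0.21 (0.0961) did not pass.

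**Figure D5:**
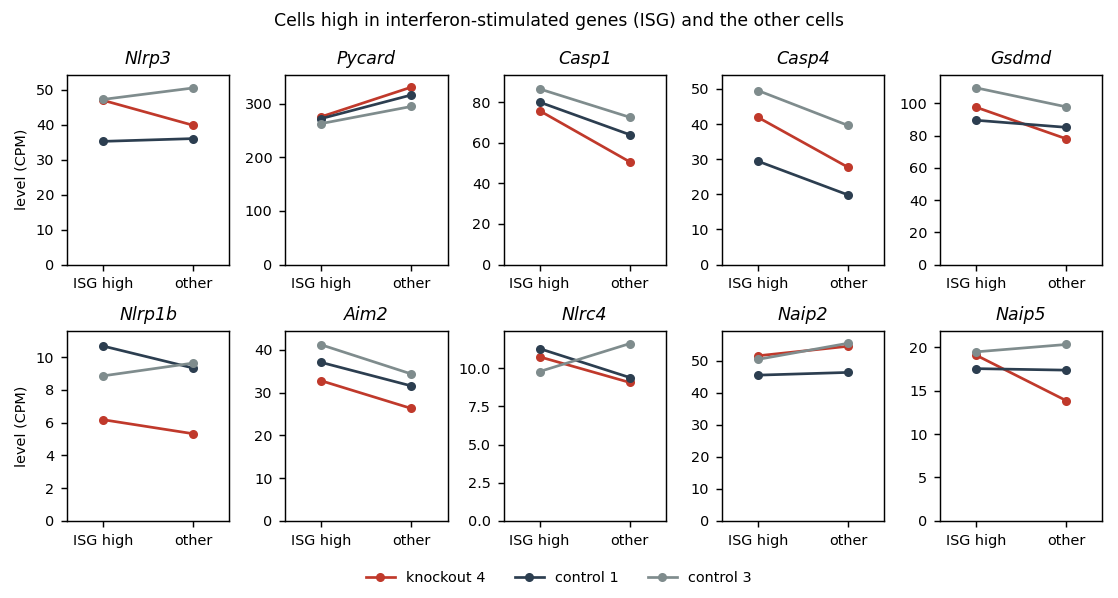
Level of each gene in CPM (vertical axes, from 0) in cells high in interferon-stimulated genes (left) and in the other monocyte-macrophage cells (right), with a line joining the 2 values of each library. The lines of Casp1, Casp4, Gsdmd and Aim2 run downward from left to right in all 3 libraries, and those of Pycard run upward.

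The promoters of Casp4, Casp1, Aim2 and Pycard, which moved with the interferon split, and that of Nlrp1b are shown because their sequence can be set beside these values. Promoter entries in RefSeq (GRCm38.p6) were found for 9 of the 10 genes, all but Gsdmd. The 250 bases before the transcription start are printed 5' to 3' along the gene's strand, taking the first RefSeq entry of each, with matches to GAGGAAG or its reverse complement, the core of sites bound by the myeloid factor PU.1, in capitals.
Casp4 promoter, chr9:5308599-5308848, plus strand: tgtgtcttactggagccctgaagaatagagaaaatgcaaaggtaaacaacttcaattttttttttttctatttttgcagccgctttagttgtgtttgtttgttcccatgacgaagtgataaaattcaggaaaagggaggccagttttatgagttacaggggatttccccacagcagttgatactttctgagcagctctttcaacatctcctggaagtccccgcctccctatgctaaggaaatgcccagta
Casp1 promoter, chr9:5298267-5298516, plus strand: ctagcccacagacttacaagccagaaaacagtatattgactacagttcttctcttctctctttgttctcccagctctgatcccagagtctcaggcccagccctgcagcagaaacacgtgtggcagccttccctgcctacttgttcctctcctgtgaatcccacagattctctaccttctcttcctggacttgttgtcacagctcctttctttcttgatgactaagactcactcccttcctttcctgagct
Aim2 promoter, chr1:173420354-173420603, plus strand: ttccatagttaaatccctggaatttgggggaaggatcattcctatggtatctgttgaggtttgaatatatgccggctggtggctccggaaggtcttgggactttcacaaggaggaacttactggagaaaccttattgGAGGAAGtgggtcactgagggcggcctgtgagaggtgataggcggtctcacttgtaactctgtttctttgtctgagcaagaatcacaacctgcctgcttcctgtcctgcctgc
Pycard promoter, chr7:127993868-127994117, minus strand: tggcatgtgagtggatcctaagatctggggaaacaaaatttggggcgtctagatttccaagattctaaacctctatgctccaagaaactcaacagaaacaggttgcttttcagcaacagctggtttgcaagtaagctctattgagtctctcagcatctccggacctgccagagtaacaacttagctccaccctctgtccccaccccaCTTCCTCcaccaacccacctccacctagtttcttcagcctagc
Nlrp1b promoter, chr11:71230734-71230983, minus strand: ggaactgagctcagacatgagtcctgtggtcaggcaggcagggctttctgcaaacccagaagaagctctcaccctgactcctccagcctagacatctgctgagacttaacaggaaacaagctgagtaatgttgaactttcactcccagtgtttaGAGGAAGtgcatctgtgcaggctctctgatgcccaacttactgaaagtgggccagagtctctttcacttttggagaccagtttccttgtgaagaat
The core occurred in 4 of the 9 genes with an entry (Aim2, Nlrp1b, Nlrp3 and Pycard) and in 10.4% of 27025 promoters of the same length, 1 per gene. The second RefSeq entries of Nlrp3 and Nlrp1b, at other starts, did not hold the core. The Aim2 window lies inside the Aim2 locus given above and not before it. The first base of the core lay 113 bases before the start in Aim2, 96 in Nlrp1b and 43 in Pycard. Neither the interferon-stimulated response element, searched as GAAA and GAAA with any 2 bases between (3.04% of promoters), nor the gamma-activated site TTCNNNGAA (7.18%) occurred in this window in any of the 9, searched on both strands, and no match says only that these letters are not in the window. The κB pattern, GGG and CC with any 5 bases between, occurred in Casp1, Casp4 and Naip5 and in 45.4% of promoters. A match is a description of letters and not of binding.

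Around the 10 genes, a list of 70 pathway genes was read from the same fits, of which 69 were tested between knockout and control. It had 2 higher genes and 1 lower (0.456% and 0.068% of all genes were called higher and lower). Cd14, a lipopolysaccharide co-receptor, had 862 CPM in the knockout library, against 343 and 454 CPM in the controls (1.11 ± 0.19 SE, adjusted p = 0.042). Casp6, an apoptotic protease, had 70.8 CPM, against 34.6 and 27.7 CPM (1.19 ± 0.17, adjusted p = 0.0264). Gbp2, an interferon-induced GTPase that acts in the caspase-11 pathway, had 13.5 CPM, against 28.5 and 27.2 CPM (-1.05 ± 0.17, adjusted p = 0.0418). Cd14 and Casp6 were also higher, and Gbp2 lower, in the Arg1 gate than in the Vcan gate. The Arg1 gate held 26.4% of knockout cells, against 7.96% and 2.59% in controls 1 and 3. Genotype and cell make-up therefore cannot be told apart for these genes. Without the Arg1 gate the 77 calls over all genes became 4, and whether these genes were among them is not given. Among the substrates and cytokines, 0 of 7 passed. Of these, Il1rn, the interleukin-1 receptor antagonist, had 271 CPM, against 81.1 and 133 CPM (1.34 ± 0.25, adjusted p = 0.0619), and Il1a had 3.22 CPM, against 2.10 and 1.22 CPM. Among the other sensors 0 of 10 passed, with 8.78 CPM for Naip6, against 12.3 and 11.7 CPM, and 87.0 CPM for Mefv, which encodes pyrin, against 54.2 and 77.0 CPM.

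Of the genes upstream of NLRP3, 1 of 11 passed (Cd14). Nek7, a kinase that NLRP3 needs for activation, had 34.2 CPM in the knockout library, against 48.0 and 41.8 CPM in controls 1 and 3 (-0.39 ± 0.17, adjusted p = 0.531), and Tlr4, the lipopolysaccharide receptor, had 44.9 CPM, against 34.7 and 27.9 CPM (0.52 ± 0.18, adjusted p = 0.391). Of the interferon-induced GTPases and their regulator Irf1, 1 of 12 passed (Gbp2), and Gbp3 had 18.2 CPM, against 29.3 and 28.4 CPM (-0.66 ± 0.17, adjusted p = 0.197). None of 7 AIM2-like receptors and none of 11 regulators passed. Of the death and membrane rupture genes 1 of 11 passed (Casp6), and Ripk3, a necroptosis kinase, had 48.8 CPM, against 35.5 and 29.8 CPM (0.58 ± 0.17, adjusted p = 0.293). Inside the Arg1 gate 8 of 61 list genes were higher and 3 lower, Il1b, Il1rn and Cd14 being among the higher (5.04% and 4.55% of all genes). Inside the Vcan gate 0 of 65 passed, where only 3 of 12564 genes were called (0.0239%).

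Across the gates the list followed the 10 genes in part. In the Arg1 gate 31 of 62 list genes were lower than in the Vcan gate and 7 were higher (17.1% and 18.3% of all genes). Il1b and Il18, the cytokines caspase-1 matures, were among the lower, whereas Il1a and Il1rn were among the higher, and 8 of 11 GTPase genes were lower. In the C1q gate 13 of 62 were lower and 9 higher (15.7% and 16.6% of all genes). In the interferon-high cells 32 of 66 list genes were higher and 3 lower (6.13% and 3.85% of all genes), all 7 AIM2-like receptors and all 11 GTPase genes tested being among the higher. These cells were picked by interferon-stimulated genes, so higher levels of interferon-induced genes follow in part from that choice. In that split 5 of 7 substrates and cytokines were higher, Il1b and Il18 among them.

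In single cells the transcripts were sparse. Pycard was detected in 67.0% of monocyte-macrophage cells of the knockout library, against 80.5% and 78.8% in controls 1 and 3. With each cell thinned to 3000 UMIs, which leaves 3681, 3563 and 6715 cells, the share was 54.1%, against 57.7% and 53.9%. Thinned shares for Nlrp3 were 9.78% in the knockout library, against 9.51% and 12.8%, for Casp1 15.02%, against 18.1% and 20.7%, and for Nlrp1b 1.60%, against 3.28% and 2.58%. Thinning thus removed most of the gap between the knockout library and the controls for Pycard. In the 24, 45 and 44 cells of the lymphocyte gate, with median depths of 2494, 2178 and 2127.5 UMIs, Nlrp3 was found in 8.33%, 6.67% and 2.27% of cells and Casp1 in 8.33%, 11.1% and 11.4% before thinning.

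A UMI of Nlrp3, Pycard, Casp1 and Gsdmd together was found at 3000 UMIs in 8 of 3681 knockout cells, 0.217% (exact 95% interval 0.0939 to 0.428%), against 0.196% (0.0790 to 0.404%) and 0.402% (0.265 to 0.584%) in controls 1 and 3. At 5000 UMIs the shares were 1.18%, against 1.84% and 1.73%. Nlrp3 together with Il1b was found in 5.32% of knockout cells at 3000 UMIs, against 4.77% and 7.36%. At least 1 of the 10 genes was found in 80.5%, against 83.9% and 84.9%. The joint share was larger at the greater depth in every library, so these shares describe detection at a set depth and not the share of cells that carry all 4 transcripts.

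Over the 21 sums of library and gate, 43 of 45 pairs of the 10 genes had a positive correlation of log2(CPM + 1), with a median r of 0.58 and a range of -0.30 to 0.86. The sums share 3 libraries and their depth, and no matching share over pairs of other genes is given, so these are descriptions. The genes most like each member among 5608 with a mean of at least 20 CPM were Anxa1 for Pycard (r = 0.98), Mcemp1 for Casp4 (0.96), Cdkn1b for Naip2 (0.96), Samsn1 for Naip5 (0.96, among 5609), Tm6sf1 for Casp1 (0.94), Camkk2 for Aim2 (0.92), Snrpb for Gsdmd (0.92) and Ifitm3 for Nlrp3 (0.91). Nlrp1b and Nlrc4, under 20 CPM in every gate, were not given one.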

How the data were processed

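Single-cell 3' RNA libraries (10x Genomics) were sequenced, per the labels, and the deposited values are raw counts of UMIs for each gene in each barcode, which the authors made with Cell Ranger 3.0.2 on GRCm38, per the submitters' processing notes. Cells needed 500 genes or more and a mitochondrial share of 10% or less, and doublets were not removed. Gates take the summed marker UMIs per 10000 UMIs, applied in the order lymphocyte, neutrophil, dendritic, patrolling, Arg1, C1q, MHC class II, S100a8, Vcan. Counts were summed per library and gate and tested with edgeR 4.0.16 in R 4.3.3 (TMM, filterByExpr, two-sided glmQLFTest, Benjamini-Hochberg over all genes tested, threshold 0.05). DESeq2 1.42.0 was an alternative. With 1 knockout library, the knockout was assumed to vary like the 2 controls. Gate and interferon comparisons had the library as a block. The gate comparisons came from 1 fit and share its estimate of spread over the sums, and the interferon comparison was fitted apart from them. The code was tested on simulated data. CPM values of single genes are relative to TMM-scaled totals, and those of summed identity markers to plain totals. Intervals are exact Clopper-Pearson and cover counting error only. The members and lists were chosen with earlier results of these data known. Named genes are all 10 members, list genes called between knockout and control or, failing that, those among the 3 lowest unadjusted p of their role, and the gene of at least 20 CPM on average most correlated with each member that reached 20 CPM in a library and gate. Of 74 list symbols, 71 were found and 1, Nlrp6, had no UMI in any library.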

Additional observations from a re-analysis of the deposited data

How the results depend on the processing

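Over all monocyte-macrophage cells, 0 of the 10 genes were called under the 8 alternatives that gave a test. The number of all genes called was 77, against 117 with DESeq2, 433 with no low-count filter, 40 with library totals in place of TMM, 37 over all cells that passed, 28 over all deposited barcodes, 5 without cells of over 2 times the median UMIs, 4 with cells thinned to 3000 UMIs and 4 without the Arg1 gate. The cause was not tested. Leaving out a control leaves 1 library against 1, so those settings gave values and no test. No paired analysis was possible because the knockout library and the controls share no replicate number. Inside the gates 1 call became 0 with DESeq2, which gave Nlrp1b in the Arg1 gate no adjusted p, 0 with doubled gate levels and 2 with halved ones. The 32 calls of members against the Vcan gate became 17 with no library block, 27 and 40 with halved and doubled gate levels (1 and 7 in place of 2 in the MHC class II gate), 35 with library totals, and 26 to 30 with 1 library left out. The share of all genes called lower also moved with the setting. In the Arg1 gate it was 17.1%, against 9.29% with no block and 14.8% and 21.8% with halved and doubled levels. In the C1q gate it was 15.7%, against 5.45% with no block and 12.3% and 22.6% with halved and doubled levels. The 5 interferon calls became 3 to 5 with 1 library left out and 3 inside the Vcan gate, a setting added after the data were seen, as were the control left out inside the gates and the differences of the knockout effect between gates. In the interferon split 6.13% of all genes were called higher, against 4.59% to 5.97% with 1 library left out and 4.96% inside the Vcan gate. Joint detection of the 4 genes was 1.18% (knockout), 1.84% and 1.73% (controls 1 and 3) at 5000 UMIs, against 0.217%, 0.196% and 0.402% at 3000.

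The reversals below concern log2 fold changes that were called neither before nor after, and their cause was not tested. For knockout against control over all cells, thinned cells gave 0.022 (Casp4) and 0.0031 (Nlrc4), and leaving out the Arg1 gate gave 0.10 (Casp4). For knockout against control inside gates, doubled levels gave -0.30 (Gsdmd) and 0.81 (Nlrp1b) in the patrolling gate, 0.23 (Nlrc4) in the Arg1 gate, 0.11 (Gsdmd) and 0.39 (Nlrc4) in the MHC class II gate, 0.055 (Nlrc4) in the S100a8 gate, -0.049 (Nlrp3) in the Vcan gate, and 0.089 (Nlrp3), -0.082 (Casp4) and -0.22 (Nlrc4) in the ungated cells. Halved levels gave -0.044 (Gsdmd, patrolling gate), 0.020 (Nlrc4, Arg1 gate), -0.21 (Naip5, Arg1 gate), 0.013 (Pycard, C1q gate) and 0.00020 (Naip2, S100a8 gate). Against the Vcan gate, doubled levels gave -0.029 (Gsdmd, MHC class II gate), -0.034 (Naip2, S100a8 gate) and -0.028 (Naip5, S100a8 gate), and halved levels gave 0.10 (Nlrp1b, patrolling gate), 0.14 (Nlrc4, MHC class II gate), 0.070 (Casp1, S100a8 gate) and 0.051 (Aim2, S100a8 gate). In the interferon split, doubled levels gave -0.14 (Nlrp1b) and 0.079 (Naip2), halved levels gave -0.049 (Nlrp3), -0.022 (Nlrp1b) and -0.10 (Nlrc4), and the Vcan gate alone gave -0.025 (Nlrp3). With 1 library left out, values against the Vcan gate ran from -0.12 to 0.020 (Nlrp1b) and from -0.015 to 0.26 (Nlrc4) in the patrolling gate, from -0.13 to 0.012 (Nlrc4) in the MHC class II gate, and from -0.068 to 0.16 (Nlrp3), -0.13 to 0.049 (Casp1) and -0.19 to 0.087 (Nlrc4) in the S100a8 gate. In the interferon split they ran from -0.081 to 0.098 (Nlrp3), -0.040 to 0.20 (Nlrp1b), -0.092 to 0.25 (Nlrc4) and -0.041 to 0.21 (Naip5).

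Depth limited the rarest members: Nlrp1b and Nlrc4 had under 12 and 15 CPM in every gate and library, and as few as 9 UMIs (Nlrp1b, ungated cells of the knockout library). With 1 knockout library, the design cannot show how far knockout libraries differ from each other.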
